A study of Mus musculus with 12 samples.

Results

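The genes described here come from the gene families of the machinery that docks, primes and fuses secretory granules, measured in mouse pancreatic islets. They were chosen by symbol: synaptotagmins, synaptotagmin-like proteins, syntaxins and their binding proteins, vesicle-associated membrane proteins, Snap23, Snap25 and Snap29, the Rab3 and Rab27 symbols, Rims, Unc13 and complexin genes, and Rph3al, Mlph, Nsf, Napa, Doc2b and Lin7a. Of 97 annotated symbols that match, 88 had a named probe, out of 17305 genes with a named probe, and each gene was represented by its brightest probe. Symbols that begin with Rab3 also took in 11 genes from Rab30 to Rab39b, which are other Rab proteins. They form a role of their own but are included in all counts over the 88 members. Family members of other membrane steps, such as Stx7 of late endosomes and lysosomes and Vamp3 of endosomes, are counted as well and are not set apart. Syt5, Unc13a, Mlph and 6 further symbols had no named probe and are not analysed here.

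Insulin is stored in dense-core granules and is released when the granule membrane fuses with the plasma membrane. Rab3 and Rab27 proteins and their effectors bring granules to the membrane, a bundle of vesicle and target SNARE proteins pulls the membranes together, and Munc18, Munc13 and complexin proteins set the bundle up and hold it. Synaptotagmins and Doc2 proteins bind calcium and trigger fusion, after which NSF and its adaptor αSNAP take the SNARE bundle apart. The same families serve other secretory cells, so acinar cells and cytotoxic lymphocytes use members of their own.

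RNA of islets from 4 genotypes was hybridised to arrays with 1 colour, with 3 arrays per genotype, 12 in all. WT mice carried neither change, PPARγ2KO mice lacked the γ2 isoform of the nuclear receptor PPARγ, ob/ob mice lacked leptin and are obese, and POKO mice, labelled DKO by the submitters, lacked PPARγ2 on the ob/ob background. Every group was on a mixed C57BL/6 x Sv129 background and was fed chow. The labels give an age of 4 weeks and the study's methods 5 weeks, the mice were female, each array held a pool of 3 to 4 mice, and no label limits a deletion to a cell type. Each of the 3 slides held 1 array of each genotype, always at the same place, so that place and genotype cannot be told apart. The Pparg probe, which does not separate the isoforms, read 8.85 to 8.98 in WT, 8.54 to 9.77 in ob/ob, 6.60 to 7.44 in PPARγ2KO and 6.41 to 7.14 in POKO on the log2 scale, so every library lacking PPARγ2 lay below every other library. Between 54.3% and 64.9% of an array's spots were well above background, 54.3% to 57.5% in WT and 60.4% to 64.9% in ob/ob.

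The islet preparations held other cells, and the islet label was checked against marker genes. The 6 beta cell markers were well above background on 11 or 12 arrays, with a summed linear signal of 628000 to 853000 in WT and 862000 to 916000 in ob/ob. That sum is nearly all Ins1 and Ins2, which read 17.07 or more on every array, while the other markers read at most 12.41. In ob/ob vs. WT 1 of the 6, Nkx6-1, rose (log2 fold change 1.09). Ins1 (0.93), Pdx1 (0.14), Ins2 (0.04), Slc2a2 (-0.60) and Mafa (-1.13) did not pass, so the markers did not share a direction. The 9 acinar markers summed to 2150000 to 2540000 over all arrays and 0 of 9 passed the limma test in any comparison. The acinar genes and Ins2 read so bright that the normalization leaves them little room to vary, and Ins2 read only 18.90 or 18.95. Even values there do not show an equal content of these cells. Some markers of other cells passed in ob/ob vs. WT. Of 4 B cell markers 3 rose, and their sum was 76.9 to 90 in WT, 56.5 to 2700 in PPARγ2KO, 1190 to 3610 in ob/ob and 1080 to 3280 in POKO. Of 4 endothelial markers 2 rose, with sums of 1360 to 3630 in WT, 3160 to 4000 in PPARγ2KO, 4730 to 6630 in ob/ob and 3670 to 4850 in POKO. Of 4 neural and Schwann cell markers 1 rose and 1 fell, and none of the alpha, delta, PP, macrophage and stroma markers passed, while the T and NK cell and duct markers are given beside the members that they moved with. The part of these cells in the members' results was not tested. Chga, a granule protein of all endocrine cells, read 15.56, 16.30 and 17.10 in WT replicates 1, 2 and 3, so that the WT arrays spanned a wide range. PPARγ2KO read 15.97, 15.98 and 16.96 in the same order, also highest in replicate 3, while ob/ob lay between 17.26 and 17.80 and POKO between 16.50 and 17.13. In such bulk samples fewer cells of a type and less RNA per cell cannot be told apart.

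For 67 of the 88 members RefSeq's promoter table for build GRCm38.p6 held a sequence of 300 bases, from 250 before to 50 after the annotated start. The promoters printed next are those of Syt11 and Stx7, which rose in ob/ob islets, of Snap23, which fell, and of Sytl4, the gene of granulophilin, a granule docking protein. All read 5′ to 3′ on the strand of the gene, and capitals mark the GC box GGGCGG and the nuclear receptor core site AGGTCA on both strands.
Syt11, chr3:88772550-88772849, minus strand: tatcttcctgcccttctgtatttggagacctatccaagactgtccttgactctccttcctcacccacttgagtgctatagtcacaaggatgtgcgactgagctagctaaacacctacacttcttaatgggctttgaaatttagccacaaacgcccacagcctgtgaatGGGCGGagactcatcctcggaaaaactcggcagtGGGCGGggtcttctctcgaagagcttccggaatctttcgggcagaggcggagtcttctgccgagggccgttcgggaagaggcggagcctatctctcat
Stx7, chr10:24149039-24149338, plus strand: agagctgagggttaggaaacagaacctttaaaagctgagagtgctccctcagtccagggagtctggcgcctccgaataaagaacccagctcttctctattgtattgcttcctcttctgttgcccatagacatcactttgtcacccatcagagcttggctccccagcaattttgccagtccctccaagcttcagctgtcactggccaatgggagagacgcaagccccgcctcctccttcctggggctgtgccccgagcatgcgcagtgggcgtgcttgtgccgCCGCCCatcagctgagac
Snap23, chr2:120567421-120567720, plus strand: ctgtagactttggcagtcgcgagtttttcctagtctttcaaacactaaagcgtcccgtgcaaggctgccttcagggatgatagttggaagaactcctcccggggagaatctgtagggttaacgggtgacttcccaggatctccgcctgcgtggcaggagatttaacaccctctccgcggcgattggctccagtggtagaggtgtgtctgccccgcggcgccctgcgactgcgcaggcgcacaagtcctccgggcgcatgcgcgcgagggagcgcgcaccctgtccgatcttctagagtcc
Sytl4, chrX:133981763-133982062, minus strand: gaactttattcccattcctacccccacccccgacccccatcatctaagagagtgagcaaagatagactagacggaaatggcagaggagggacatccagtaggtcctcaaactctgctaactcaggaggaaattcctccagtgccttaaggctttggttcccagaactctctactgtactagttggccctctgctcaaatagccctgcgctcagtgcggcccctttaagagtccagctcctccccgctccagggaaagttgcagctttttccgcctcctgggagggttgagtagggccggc
The Syt11 promoter held the GC box 2 times and this Stx7 promoter, of 2 listed, held it 1 time, whereas the Snap23 and Sytl4 windows held neither set of letters. A GC box stood in 35.7% of all 32851 promoters of the table and, counted by gene, in any listed promoter of 48 of the 67 members. The core site AGGTCA stood in 16.3% of all promoters and, counted by gene, in any listed promoter of 14 members. Its direct repeat with a gap of 1 base, the arrangement bound by PPARγ with its partner RXR, stood in 0.0396% of all promoters and in none of the members' windows. A gene can have several listed promoters, so the share of promoters and the count of member genes are unlike measures and cannot be compared. These counts describe letters in short windows and do not show binding.

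The ob/ob vs. WT comparison asks how islets differ when they expand in obesity. Of the 88 members, 7 rose (6.48% of all named genes did) and 2 fell (7.13% of all named genes), in all 10.2% of the members against 13.6% of all named genes by the same rule, limma with Benjamini-Hochberg adjustment at 0.05. By this count the members' share was the lower one, and by the unadjusted p given below it was the higher one, so no difference from all genes is read from it. The genes that rose included the synaptotagmins Syt4, Syt7 and Syt11, the Munc13 gene Unc13d, the syntaxin Stx7 and the scaffold Lin7a. Those that fell were Rab27b and the SNARE Snap23. At an unadjusted p under 0.05, 22 members were higher and 13 lower, or 39.8% against 37% of all genes, and the arrays of ob/ob and WT did not overlap for 32 members, 36.8% of those measured on every array, against 39.1% of all genes. The median log2 fold change came to 0.09 over the members and -0.06 over all genes.

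**Figure D1:**
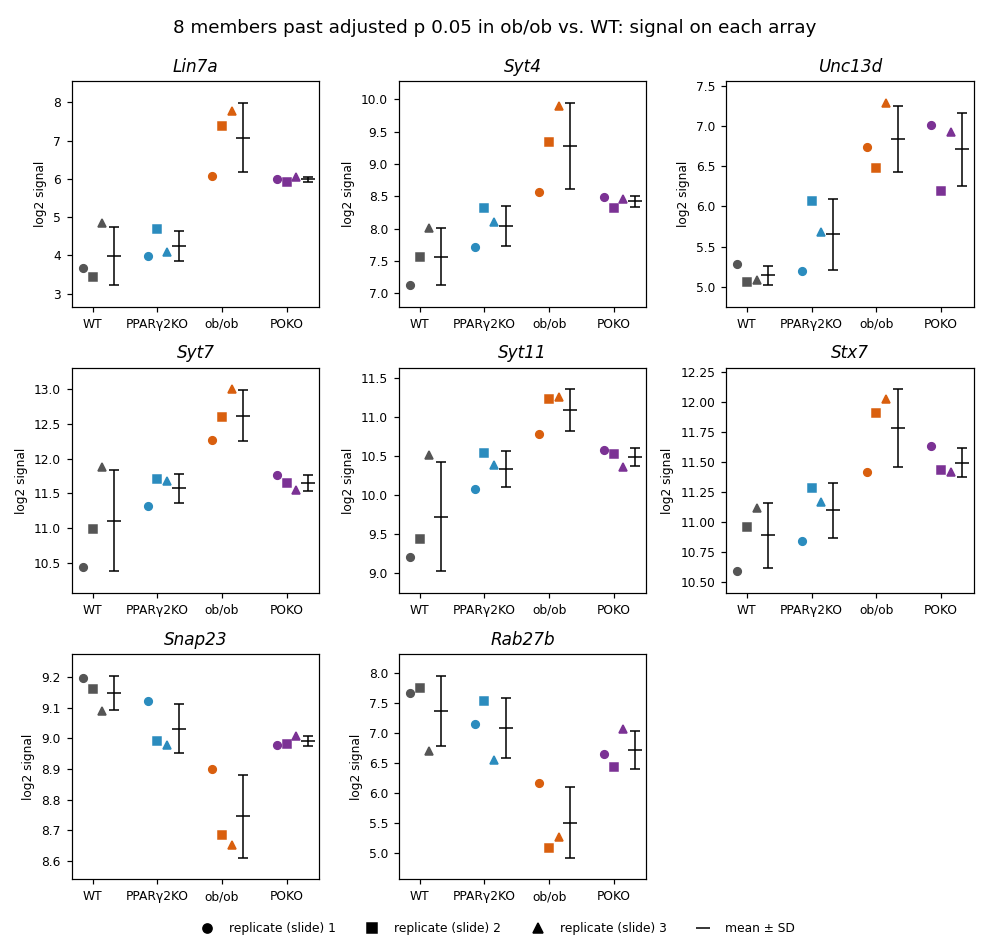
Log2 signal of 8 of the 9 members past adjusted p 0.05 in ob/ob vs. WT. Each point is 1 array, its shape gives the slide, and bars are the mean and SD of 3 arrays. The WT and ob/ob points do not overlap in any panel, and POKO lies between their means in each. The y axes differ between genes and do not start at 0.

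Among the synaptotagmins and Doc2, 3 of 17 members rose and none fell. Syt4, a synaptotagmin of dense-core granules that binds calcium weakly, read 7.13, 7.56 and 8.01 in WT, 7.71, 8.32 and 8.10 in PPARγ2KO, 8.57, 9.35 and 9.90 in ob/ob and 8.49, 8.32 and 8.45 in POKO on the log2 scale. All ob/ob arrays were above all WT arrays, and so were all POKO arrays. Syt4 was 3.26-fold higher in ob/ob than in WT (log2 fold change 1.71 ± 0.33 (SE), adjusted p = 0.0249 by limma with Benjamini-Hochberg), and its other probe gave 1.79. With normexp background correction, which adds an offset to every signal, the log2 fold change was 1.102 (adjusted p = 0.0288 by limma with Benjamini-Hochberg).

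Syt7, a high-affinity calcium sensor for insulin and glucagon release, read 10.44, 10.99 and 11.89 in WT and 12.27, 12.60 and 13.00 in ob/ob. In PPARγ2KO its values were 11.33, 11.71 and 11.68, and in POKO 11.77, 11.65 and 11.54. The WT arrays were widely spread and the highest WT array was above every POKO array but below every ob/ob array. The rise in ob/ob vs. WT was 2.86-fold (log2 fold change 1.52 ± 0.33, adjusted p = 0.0292 by limma with Benjamini-Hochberg), and each of the 4 Syt7 probes passed, with log2 fold changes from 1.11 to 1.52.

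Syt11, a synaptotagmin that does not bind calcium and takes part in membrane traffic, read 9.21, 9.44 and 10.52 in WT, 10.08, 10.54 and 10.38 in PPARγ2KO, 10.78, 11.23 and 11.25 in ob/ob and 10.57, 10.53 and 10.36 in POKO. The ob/ob arrays stood above all others, and WT replicate 3 lay among the PPARγ2KO and POKO arrays. Its log2 fold change in ob/ob vs. WT came to 1.36 ± 0.30 (adjusted p = 0.0311 by limma with Benjamini-Hochberg), and its dimmer probe gave 1.09 (adjusted p = 0.0478).

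Other synaptotagmins did not pass. Syt9, a fast calcium sensor of beta cells, read 5.08, 5.68 and 6.26 in WT and 6.01, 6.89 and 6.49 in ob/ob, groups that overlapped (log2 fold change 0.79, adjusted p = 0.101 by limma with Benjamini-Hochberg). Syt13, an atypical synaptotagmin of endocrine cells, read 11.73, 12.11 and 13.28 in WT and 13.33, 13.64 and 13.06 in ob/ob (0.97, adjusted p = 0.0988). For both genes WT replicate 3 reached into the ob/ob range.

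Syt12 lay in the opposite direction. This synaptotagmin without calcium binding read 10.74, 10.37 and 10.35 in WT, 10.23, 9.58 and 10.37 in PPARγ2KO, 9.78, 8.93 and 7.13 in ob/ob and 10.09, 9.69 and 9.89 in POKO. The groups WT and ob/ob did not overlap, but the ob/ob arrays were far apart. Its log2 fold change of -1.87 ± 0.55 had an adjusted p of 0.0574 (limma with Benjamini-Hochberg), while its dimmer probe, well above background on 3 of the 12 arrays, gave -2.01 with an adjusted p of 0.00613. Doc2b, another calcium sensor of insulin release, read 2.47, 2.60 and 3.54 in WT, where no array was well above background, and 2.75, 4.72 and 2.86 in ob/ob, where 2 were. The groups overlapped and ob/ob replicate 2 alone stood apart. The log2 fold change of 0.57 had a 95% interval from -0.98 to 2.12 (adjusted p = 0.598 by limma with Benjamini-Hochberg), and without that array it was -0.067.

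Among the SNARE genes, 1 of 14 syntaxins rose and 1 of 3 genes of the SNAP-25 family fell. Stx1a, the plasma membrane syntaxin of insulin release, read 6.41, 6.58 and 6.87 in WT, 7.22, 7.24 and 6.79 in PPARγ2KO, 6.55, 6.57 and 6.82 in ob/ob and 6.40, 6.56 and 6.19 in POKO. WT and ob/ob covered the same range, and the log2 fold change of 0.03 had a 95% interval from -0.35 to 0.41. Stx4a, the syntaxin that works with Munc18c, gave -0.09 with an interval from -0.33 to 0.14, and under scaling to the 75th percentile, which shifted the median of all probes from -0.08 to -0.19, its value was -0.31.

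Snap25, the partner of Stx1a, read 4.50, 5.29 and 5.61 in WT and 5.47, 6.40 and 6.15 in ob/ob. The groups overlapped, and the log2 fold change of 0.87 had an adjusted p of 0.146 (limma with Benjamini-Hochberg). Snap23, the widely expressed member of the same family, read 9.20, 9.16 and 9.09 in WT, 9.12, 8.99 and 8.98 in PPARγ2KO, 8.90, 8.69 and 8.65 in ob/ob and 8.98, 8.98 and 9.01 in POKO. Its fall was small, and every ob/ob array was below every other array. Snap23 fell by 0.40 ± 0.08 on the log2 scale, 1.32-fold (adjusted p = 0.0276 by limma with Benjamini-Hochberg), and its 2 dimmer probes gave -0.46 and -0.50 with adjusted p of 0.0747 and 0.0637.

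Among 14 syntaxins only Stx7, a syntaxin of late endosomes and lysosomes, passed. It read 10.59, 10.96 and 11.11 in WT, 10.84, 11.28 and 11.17 in PPARγ2KO, 11.42, 11.91 and 12.02 in ob/ob and 11.63, 11.43 and 11.42 in POKO. All arrays of both obese genotypes lay above all arrays of both lean ones. The log2 fold change in ob/ob vs. WT came to 0.90 ± 0.19, 1.86-fold (adjusted p = 0.0298 by limma with Benjamini-Hochberg). Stx3, a syntaxin of granule-to-granule fusion and of acinar cells, gave -0.64 with overlapping arrays, and its 4 probes disagreed, from -1.04 (adjusted p = 0.0388) to 0.25.

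None of the 7 vesicle SNARE genes passed. Vamp2, the main vesicle SNARE of insulin granules, read 8.54, 8.999 and 9.32 in WT, 9.64, 10.13 and 9.17 in PPARγ2KO, 9.36, 9.86 and 10.49 in ob/ob and 8.86, 8.87 and 8.81 in POKO. The ob/ob arrays were all above the WT arrays and the POKO arrays were close together within the WT range (ob/ob vs. WT log2 fold change 0.95, adjusted p = 0.0833 by limma with Benjamini-Hochberg). Its dimmer probes, well above background on all 12 arrays, gave smaller values of 0.71 and 0.53 (adjusted p = 0.244 and 0.342 by the same test). Vamp3, a SNARE of endosomes, gave -0.46 with an adjusted p of 0.0534, and Vamp8, the main vesicle SNARE of acinar granules, which also works in beta cells, gave -0.38 with an adjusted p of 0.2. The dimmer Vamp8 probe gave -0.53 with an adjusted p of 0.0506 (limma with Benjamini-Hochberg). Nsf and Napa, the genes of the disassembly step, gave 0.15 each, with 95% intervals from -0.13 to 0.43 and from -0.41 to 0.72.

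Of the syntaxin-binding proteins, Stxbp2, the Munc18-2 gene of epithelial and blood cells, read 9.75 and 9.38 in WT, where replicate 2 was an outlier spot left out of the fit, and 9.01, 8.66 and 8.67 in ob/ob. Both WT arrays were above the ob/ob arrays. The log2 fold change of -0.78 had an adjusted p of 0.0532, and of 0.0388 with the slide as a replicate block (limma with Benjamini-Hochberg). Stxbp3, the Munc18c gene, gave 0.12 with an interval from -0.18 to 0.42.

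In the priming step Unc13d, the gene of Munc13-4, was called. It read 5.28, 5.07 and 5.08 in WT, 5.20, 6.07 and 5.68 in PPARγ2KO, 6.74, 6.48 and 7.28 in ob/ob and 7.01, 6.19 and 6.93 in POKO, so that both obese genotypes stood above both lean ones on every array. Its log2 fold change came to 1.69 ± 0.29 in ob/ob vs. WT, 3.23-fold (adjusted p = 0.0202), and 1.57 in POKO vs. WT (adjusted p = 0.0739 by limma with Benjamini-Hochberg). The size of the ob/ob value depended on the background correction: with normexp it was 0.41 (adjusted p = 0.0314). Munc13-4 is best known from the granules of cytotoxic T and NK cells. Of 10 T and NK cell markers 6 rose in ob/ob vs. WT, and 9 had a positive log2 fold change. Among the cytotoxic markers Gzmb passed (4.79, adjusted p = 0.0458). Gzma, Prf1 and Nkg7 gave 2.17, 2.66 and 2.78 and did not pass (adjusted p = 0.0584, 0.0659 and 0.0984 by limma with Benjamini-Hochberg). Cd3e was lower, at 8.25, 8.33 and 8.08 in WT and 6.09, 6.65 and 7.46 in ob/ob (-1.48, adjusted p = 0.118 by limma with Benjamini-Hochberg). The summed linear signal of the 10, which mixes both directions, was 420 to 456 in WT, 268 to 1680 in PPARγ2KO, 1140 to 2920 in ob/ob and 665 to 1900 in POKO. The part of these markers in the Unc13d result, and that of the B cell markers, was not tested.

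Complexins, which clamp and then release the SNARE bundle, did not pass. Cplx2, the complexin of beta cells, read 11.72, 12.21 and 13.15 in WT and 13.14, 13.57 and 13.16 in ob/ob, and Cplx1 gave a log2 fold change of 1.20 with WT well above background on 2 arrays. Their adjusted p were 0.077 and 0.085 (limma with Benjamini-Hochberg), and with normexp Cplx1 gave 0.19. The WT replicate 3 of Cplx2 lay in the ob/ob range.

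**Figure D2:**
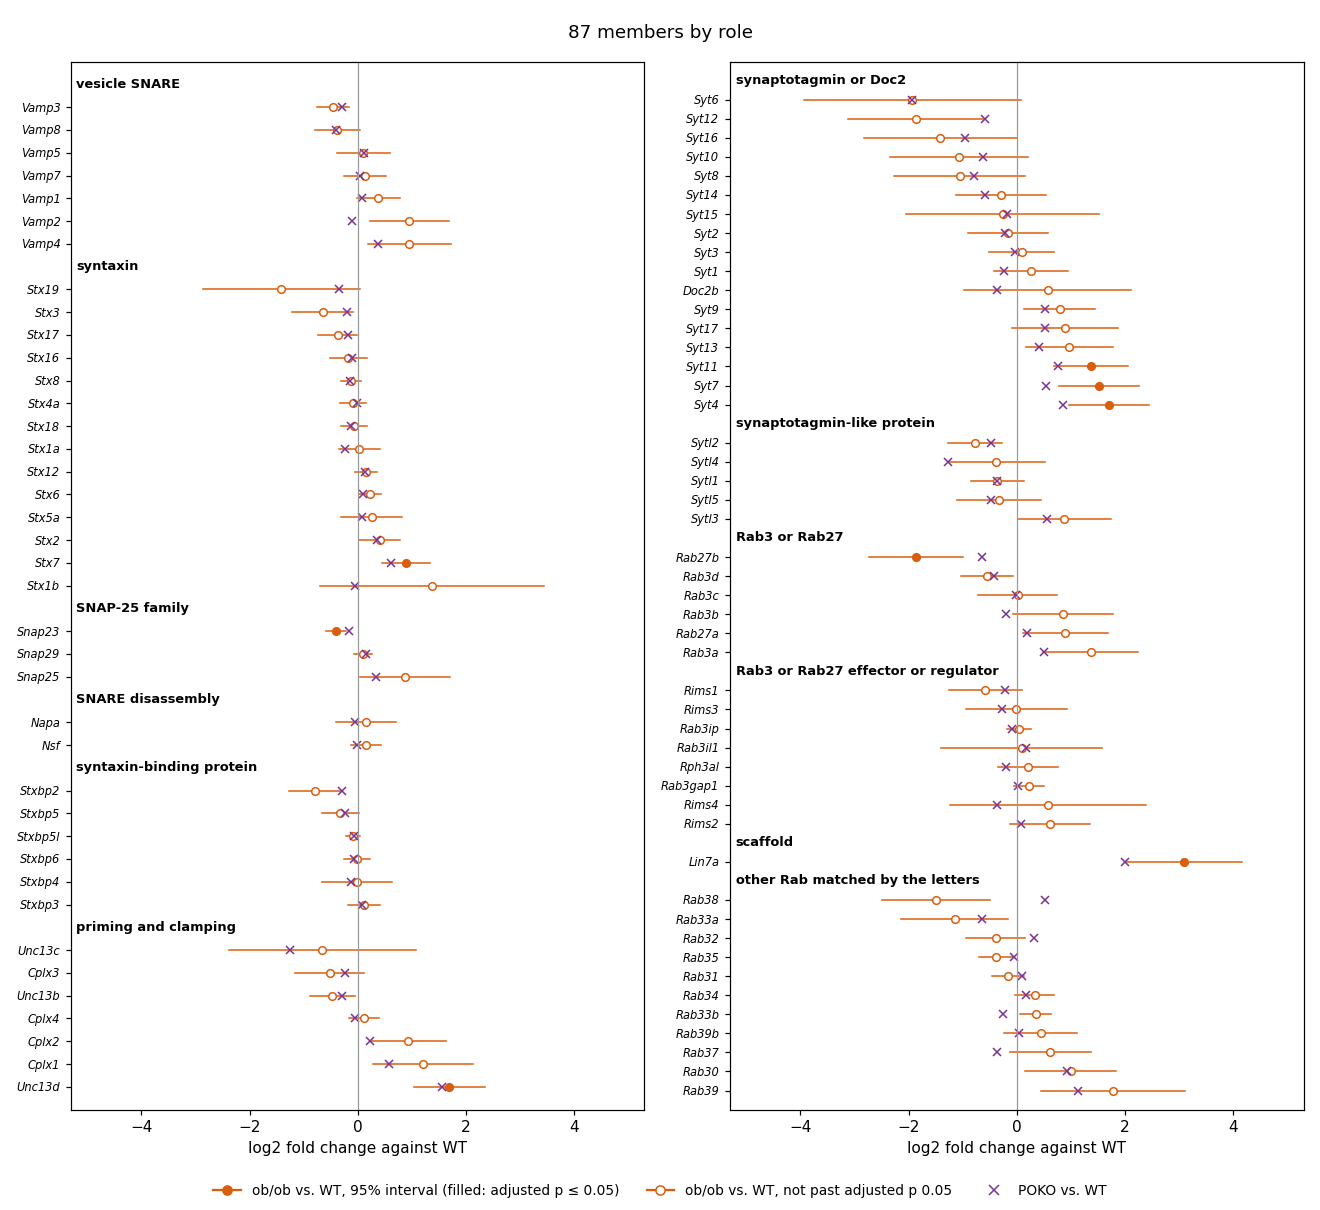
Log2 fold change of 87 members against WT, grouped by role and ordered within a role by the ob/ob value. Circles and lines give ob/ob vs. WT with the 95% interval, filled where adjusted p is at most 0.05, and crosses give POKO vs. WT. The 8 filled circles lie in 6 of the 12 roles, and none of the crosses passed the test.

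The Rab27 pair did not move together. Rab27b read 7.66, 7.76 and 6.70 in WT, 7.15, 7.54 and 6.56 in PPARγ2KO, 6.18, 5.09 and 5.27 in ob/ob and 6.66, 6.44 and 7.07 in POKO. The ob/ob arrays were below all others. It fell 3.64-fold in ob/ob vs. WT (log2 fold change -1.86 ± 0.39, adjusted p = 0.0276 by limma with Benjamini-Hochberg), and its dimmer probe, well above background on 3 arrays, gave -1.28 (adjusted p = 0.257). The Rab27b value was -0.63 with normexp (adjusted p = 0.0368), and the mean of both probes, at -1.57, did not pass (adjusted p = 0.0637). Rab27a, the Rab of insulin granule docking, read 8.27, 8.91 and 9.71 in WT and 9.39, 10.099 and 10.095 in ob/ob, with overlap (0.90, adjusted p = 0.115); the difference between the 2 genes was not tested.

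Rab3a, a Rab of endocrine and synaptic granules, read 9.59, 10.30 and 11.19 in WT, 10.51, 10.63 and 10.91 in PPARγ2KO, 11.05, 12.02 and 12.11 in ob/ob and 10.95, 10.83 and 10.78 in POKO. The lowest ob/ob array lay under WT replicate 3. Its log2 fold change of 1.37 had an adjusted p of 0.0532, and of 0.0385 with the slide as a replicate block (limma with Benjamini-Hochberg). Rab3d, a Rab of acinar granules, gave -0.55 (adjusted p = 0.117), with the ob/ob arrays all below the WT arrays. Its dimmer probe, well above background on all 12 arrays, gave only -0.17 (adjusted p = 0.58 by the same test).

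Rab27b and Snap23 are also made by epithelial cells, and some duct markers fell beside them. Of 5 duct markers Krt19, Sox9 and Cftr fell in ob/ob vs. WT, whereas Krt7 and Spp1 gave 0.54 and 0.72 with adjusted p of 0.153 and 0.132 (limma with Benjamini-Hochberg). The summed linear signal of the 5 was 81300 to 93700 in WT, 73600 to 97400 in PPARγ2KO, 48900 to 73700 in ob/ob and 59400 to 87600 in POKO. The acinar sum was 2360000 to 2420000 in WT and 2150000 to 2400000 in ob/ob. Their part in these results was not tested.

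Of the effectors, none passed. Sytl4, the gene of granulophilin, which docks insulin granules through Rab27a, read 9.57, 9.86 and 10.91 in WT, 9.62, 9.33 and 10.28 in PPARγ2KO, 9.20, 10.25 and 9.74 in ob/ob and 9.09, 8.87 and 8.55 in POKO. POKO was below every array of the other genotypes, and WT and ob/ob overlapped. The log2 fold change came to -0.38 in ob/ob vs. WT, -1.28 ± 0.40 in POKO vs. WT (adjusted p = 0.165) and -0.89 ± 0.40 in POKO vs. ob/ob (adjusted p = 0.536 by limma with Benjamini-Hochberg). Its 95% interval in POKO vs. ob/ob ran from -1.79 to 0.00. Within the 3 slides the value was -0.11, -1.38 and -1.19, where the negative sign follows from POKO lying below every ob/ob array. Rims2, a Rab3 effector of the docking zone, and Rph3al, the gene of Noc2, gave 0.62 and 0.20 in ob/ob vs. WT, and Sytl5, a Rab27 effector, gave -0.33.

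Lin7a is a scaffold that holds receptors and channels at the membrane. It read 3.68, 3.43 and 4.85 in WT, 3.98, 4.70 and 4.08 in PPARγ2KO, 6.07, 7.39 and 7.79 in ob/ob and 6.00, 5.92 and 6.05 in POKO. Every array of the obese genotypes was above every lean array. The log2 fold change in ob/ob vs. WT came to 3.10 ± 0.47 (adjusted p = 0.016 by limma with Benjamini-Hochberg). Only 1 WT array was well above background, so the WT level, and with it the size of the change, is poorly known. With normexp the value was 0.58 (adjusted p = 0.0314), below those of Syt7 (1.47), Syt11 (1.24) and Syt4 (1.102) under that correction. The 3 dimmer Lin7a probes also passed, with values from 1.81 to 1.93. POKO vs. WT gave 2.01 (adjusted p = 0.107), and in the dimmer probes 1.50, 1.02 and -0.05.

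**Figure D3:**
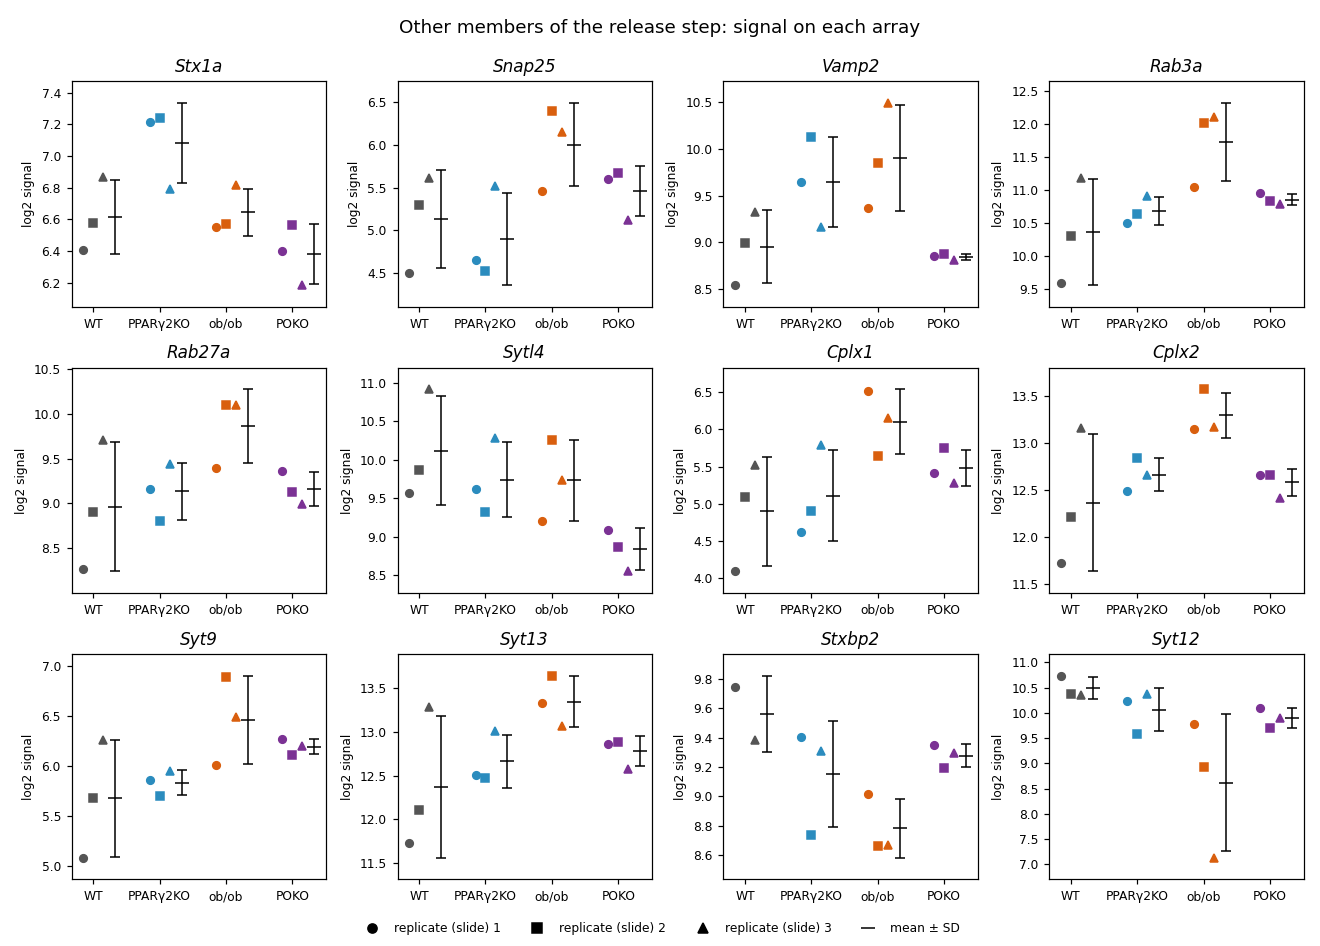
Log2 signal of 12 further members on each array, drawn as for the called members: points are arrays, shapes are slides and bars are the mean and SD. Panels with their own y axis show a wide WT spread with WT replicate 3 on top for Rab3a, Cplx2 and Syt13, and POKO lowest for Sytl4. Stxbp2 has 2 WT points.

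WT replicate 3 was the highest WT array for Syt4, Syt7, Syt11, Stx7, Rab3a, Cplx2 and Syt13, and the lowest for Rab27b and Snap23, and Chga was also highest there. Without it 18 members rose and 11 fell in ob/ob vs. WT, and the 9 called members were all among them. Without WT replicate 2 no member passed, without WT replicate 1 only 2 did, and without ob/ob replicate 2 or 3 only 1, Unc13d and Lin7a in turn. Without ob/ob replicate 1, 16 members passed. In a fit on only the ob/ob and WT arrays, which takes no spread from the other genotypes, Unc13d alone passed. The share of all genes that passed in these fits was not computed, so a change across all genes and one of the members cannot be told apart. Within a slide each of the 9 called members had the same direction 3 times, at 2.40, 3.96 and 2.93 for Lin7a, and at -0.30, -0.48 and -0.44 for Snap23. The shared direction follows from the lack of overlap between their ob/ob and WT arrays and adds no further support.

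The wider release machinery was read from a list of 44 genes, of which 41 were measured. It covers the exocyst, which tethers vesicles, further scaffolds of the active zone, synapsins and other granule membrane proteins. In ob/ob vs. WT none rose and 2 fell, or 4.88% of the list against 13.6% of all genes. Snapin, a partner of the SNAP-25 family, gave -0.77 (adjusted p = 0.0309), and Doc2a, a calcium sensor related to Doc2b, gave -0.64 (adjusted p = 0.0463 by limma with Benjamini-Hochberg). Syp, the gene of the vesicle protein synaptophysin, read 7.36, 7.72 and 8.59 in WT and 8.56, 9.001 and 9.56 in ob/ob (1.15, adjusted p = 0.057), where WT replicate 3 again reached the ob/ob range.

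The POKO vs. WT comparison asks what remains of this in obese islets lacking PPARγ2. No member passed (limma with Benjamini-Hochberg), as against 0.214% of all genes, and 8 members, 9.09%, had an unadjusted p under 0.05 against 17.2% of all genes. Besides Unc13d, Lin7a and Sytl4 these were Stx7 (0.61), Syt11 (0.77), Syt4 (0.85), Vamp3 (-0.30) and Rab30 (0.94). Among the other called genes the values were 0.54 for Syt7, -0.65 for Rab27b and -0.16 for Snap23. Since these 9 genes were called against the same WT arrays, the POKO values are set beside the ob/ob values as a description.

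The POKO vs. ob/ob comparison asks what the loss of PPARγ2 does in obesity. No member passed, nor did the brightest probe of any other gene (0%), and the smallest adjusted p was 0.531 (limma with Benjamini-Hochberg). At an unadjusted p under 0.05 there were 16 members, 18.2% against 11.8% of all genes, 7 higher in POKO and 9 lower. The 11 other Rab genes supplied 3 of the 7 and 2 of the 9. Lower in POKO were, among others, Vamp2 (-1.06), Syt7 (-0.97), Syt4 (-0.85), Cplx2 (-0.71) and Lin7a (-1.09) with Rab3b, Rab33b and Rab37, and higher were Rab27b (1.21), Syt12 (1.28), Stxbp2 (0.50) and Snap23 (0.24) with Rab32, Rab35 and Rab38. Of these, 6 are genes that were called in ob/ob vs. WT with the same ob/ob arrays. Rab38, a Rab of lysosome-related organelles and named here after its values were seen, read 4.63, 3.18 and 3.46 in ob/ob and 5.96, 5.36 and 6.00 in POKO (2.01, adjusted p = 0.531).

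In lean islets the loss of PPARγ2 gave 4 members with an unadjusted p under 0.05, 4.55% against 8.83% of all genes, and none that passed (limma with Benjamini-Hochberg; 0% of all genes passed). They were Stx1a (0.47), Stx3 (-0.61), Stxbp5 (-0.43), the gene of the SNARE inhibitor tomosyn-1, and Sytl2 (-0.61), a Rab27 effector. PPARγ2KO vs. WT and POKO vs. ob/ob share no arrays. Values were higher in both for 7 members, lower in both for 22, higher in lean and lower in obese islets for 37, and lower in lean and higher in obese islets for 22.

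An interaction term, which sets the effect of PPARγ2 loss in obese islets against the effect in lean islets, was tested for each member and none passed (limma with Benjamini-Hochberg; 0% of all genes passed). For 17 members, 19.3% against 16.1% of all genes, the unadjusted p was under 0.05. Among the 17, the 11 other Rab genes supplied 3 with a positive and 2 with a negative value. Vamp2 had the smallest adjusted p, 0.258, at -1.75 ± 0.46 on the log2 scale: its value was 0.69 with PPARγ2 loss in lean islets and -1.06 in obese islets. These are values of its brightest probe, and its dimmer probes gave -0.64 and -0.63 in obese islets. Stx1a gave -0.73 (adjusted p = 0.282), Syt7 -1.44 (adjusted p = 0.278) and Rab27b 1.50 (adjusted p = 0.299 by limma with Benjamini-Hochberg). Without WT replicate 3, 5 members passed the interaction, where the share of all genes was likewise not computed.

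**Figure D4:**
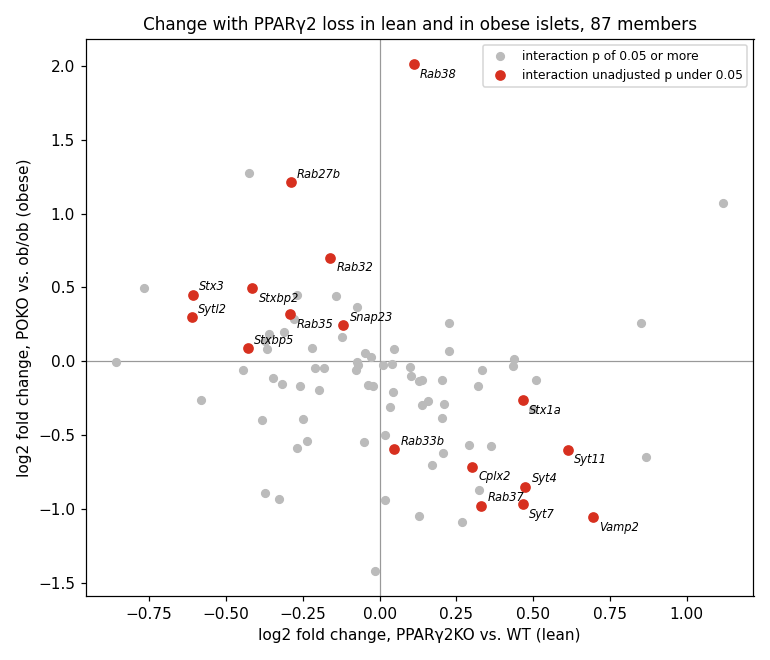
Log2 fold change with PPARγ2 loss in lean islets (x axis, PPARγ2KO vs. WT) against that in obese islets (y axis, POKO vs. ob/ob), 1 point per member. Red points have an unadjusted interaction p under 0.05, 17 in all, and none passed after adjustment. Vamp2 lies at 0.69 and -1.06.

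The remaining comparisons gave no called member either. In POKO vs. PPARγ2KO 12 members had an unadjusted p under 0.05, 13.6% against 12.9% of all genes, and Stx1a had the smallest adjusted p (0.254, log2 fold change -0.70 by limma with Benjamini-Hochberg). Its POKO arrays were all below its PPARγ2KO arrays. In ob/ob vs. PPARγ2KO 25 members had an unadjusted p under 0.05, 28.4% against 25.1% of all genes, while 0.00578% of all genes passed after adjustment. The smallest adjusted p were those of Lin7a (2.83, adjusted p = 0.0802), Rab27b (-1.57, adjusted p = 0.0991) and Unc13d (1.18, adjusted p = 0.0992 by limma with Benjamini-Hochberg).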

How the data were processed

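Islet RNA was measured on 12 Agilent 4x44K arrays, 3 per genotype. Per the file headers and labels, Agilent Feature Extraction 10.1.1.1 read the spots and subtracted background, which gave the deposited processed signal, a linear intensity not yet scaled from array to array. The table deposited by the authors holds normalized log2 values, used here as an alternative. Following the study's methods, the processed signal was quantile-normalized and put on the log2 scale in R 4.3.3 with limma 3.58.1. Of 45018 spots 1639 controls and, over all arrays, 919 outlier spots were left out; spots of a probe were averaged, leaving 41174 probes. No spot was saturated (0), and the number of arrays limits the precision.

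A limma fit (lmFit, eBayes) with genotype as the factor gave 6 comparisons and the interaction, adjusted by Benjamini-Hochberg over all probes, and a probe passed at an adjusted p of at most 0.05. RefSeq accessions named 25097 probes; coordinates come from its GRCm38.p6 table. Arrays held separate pools, so p-values measure the spread between pools, taken over all genotypes together. That spread was unequal: for Syt7 the SD was 0.73 in WT and 0.11 in POKO. Arrays of genotypes outside a comparison thus enter its p-values. Genes described singly are 33: the best-known islet release genes, members called in any comparison, Syt12 and Lin7a. Rab3b, Stxbp5, Sytl2, Rab30 to Rab38, Chga and Syp were named after their values were seen. Members and lists were chosen with earlier results of these data known.

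Same-numbered arrays share a slide, as the headers show, but their deviations from group means correlated only at -0.134 to 0.184 over 18 pairs. The script was tested on simulated data. Alternatives were scaling to the 75th percentile, normexp (offset 50) on the median signal, the authors' values, the mean of a gene's probes, outlier spots kept, a filter on dim probes (24309 left), a slide block, only the groups compared, a fold limit of 1 on the log2 scale in either direction, and each array left out. The counts cover all members, but 1 member is not reported here by itself.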

Additional observations from a re-analysis of the deposited data

How the results depend on the processing

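Of the 9 members called in ob/ob vs. WT, 7 remained called when arrays were scaled to the 75th percentile, 8 with normexp or the mean of a gene's probes, and all 9 with the authors' values, outlier spots kept, the dim filter or the slide as a replicate block, under which 8 rose and 3 fell and no other comparison gained a call. The number that rose, 7, became 1 in a fit on only the groups compared, and that which fell, 2, became 4 (75th percentile), 7 (dim filter), 0 (only the groups compared) and 1 (fold limit). With each array left out, 0 to 18 rose and 0 to 11 fell. The share of all genes was not computed under the alternatives, so these counts have none beside them. In POKO vs. WT 1 member passed at the 75th percentile and 2 with the dim filter, and 0 to 2 with an array left out; in ob/ob vs. PPARγ2KO 1 with the dim filter and 0 to 13; in POKO vs. PPARγ2KO 0 to 2; in the interaction 0 to 5. None passed in PPARγ2KO vs. WT or POKO vs. ob/ob under any of these settings. The members' median log2 fold change moved to 0.019 with normexp in ob/ob vs. WT (0.014 to 0.117 with an array left out) and to 0.023 in ob/ob vs. PPARγ2KO, to -0.0018 (75th percentile) and -0.00049 (normexp) in POKO vs. PPARγ2KO (-0.036 to 0.037), and to -0.048 (normexp) and -0.093 (mean of probes) in the interaction (-0.201 to -0.086). Normexp gave smaller log2 fold changes for dim called genes in ob/ob vs. WT, 0.58 for Lin7a, 0.41 for Unc13d and -0.63 for Rab27b, against 3.10, 1.69 and -1.86. Signs turned only for genes not called in ob/ob vs. WT: at the 75th percentile Napa (-0.066) and Stxbp3 (-0.040), and with an array left out, which took Napa from -0.157 to 0.408, Stx1a from -0.076 to 0.156, Doc2b from -0.067 to 0.917, Sytl4 from -0.657 to 0.016 and Sytl5 from -0.628 to 0.011, with negative values also at -0.056 for Stx1a. Other than for the settings that use fewer arrays or fewer probes, the cause was not tested. Of the 88 members 64 were well above background on all 12 arrays, 19 on some and 5 on none, so for 24 the level was at or near the limit of the arrays in some samples.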
